A study of Mus musculus with 15 samples.

Results

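The mouse liver Cyp2b genes were followed together with the genes of their regulators and their electron donor across 4 groups of livers. The 6 genes were Cyp2b9, Cyp2b13 and Cyp2b10, the receptor genes Nr1i3 and Nr1i2, and Por. They were chosen by name and family. Earlier results of these data were known when these genes and the gene lists below were chosen. All 6 were found by symbol among the 54281 genes of the deposited expression table, and all 6 were among the 11568 genes with enough signal to be tested, Cyp2b9 through 13 libraries, Cyp2b13 through 9, Cyp2b10 through 7 and the other 3 through all 15. RNA came from livers of 15 male C57BL6J mice aged 9.5 months, with 1 library per mouse.

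The DEN/HFD mice had diethylnitrosamine (DEN, a liver carcinogen) at 25 mg/kg when 2 weeks old. They ate a high fat diet for 32 weeks from week 6, and this served as a model of progressive fatty liver disease. The chow mice had the vehicle in place of DEN and stayed on chow, so the effects of DEN and of the diet cannot be told apart. Within each diet, some mice had MCOPPB. The series title names it as a selective ligand of the nociceptin/orphanin FQ receptor and as a senolytic drug (one meant to clear senescent cells). It was injected into the abdomen at 5 mg/kg in 3 cycles over 21 days, each of 5 injection days and 2 days without. The controls had saline injections. There were 3 mice with DEN/HFD and MCOPPB, 4 with DEN/HFD and saline, 5 with chow and MCOPPB and 3 with chow and saline. Liver RNA mixes many cell types, and in it fewer cells of a type and less RNA per cell cannot be told apart.

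CYP2B enzymes are cytochromes P450 of the endoplasmic reticulum that oxidise drugs, steroids and other lipophilic compounds. They take their electrons from NADPH through the reductase encoded by Por. CAR (Nr1i3) and PXR (Nr1i2) are nuclear receptors that pair with RXR and switch on Cyp2b, Cyp2c and Cyp3a genes when drugs or bile acids are sensed. Cyp2b10 is the classical CAR target of mouse liver, while Cyp2b9 and Cyp2b13 are best known as genes of the female liver that the male growth hormone pattern holds down.

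The 3 Cyp2b genes lie within one cluster of Cyp2 genes on chromosome 7 (GRCm38, GENCODE M21), all on the plus strand. Cyp2b10 (ENSMUSG00000030483.14) spans 25897620 to 25926624, Cyp2b13 (ENSMUSG00000040583.8) spans 26061497 to 26096197, and Cyp2b9 (ENSMUSG00000040660.6) spans 26173411 to 26210661. The 250 bases before each RefSeq start are shown because Cyp2b9 and Cyp2b13 moved together in these livers and Cyp2b10 did not pass the test. They are taken from the RefSeq promoter table for GRCm38.p6, where all 6 genes were matched, at chr7:26173159-26173408 for Cyp2b9, chr7:26061245-26061494 for Cyp2b13 and chr7:25897408-25897657 for Cyp2b10 (plus strand, 5′ to 3′). The RefSeq start of Cyp2b10 lies downstream of the GENCODE start given above, so its window ends inside the gene as GENCODE annotates it. Capitals in the first pair mark the bases that differ between Cyp2b9 and Cyp2b13. Capitals in Cyp2b10 mark the bases that differ from Cyp2b9 in a global alignment.
Cyp2b9: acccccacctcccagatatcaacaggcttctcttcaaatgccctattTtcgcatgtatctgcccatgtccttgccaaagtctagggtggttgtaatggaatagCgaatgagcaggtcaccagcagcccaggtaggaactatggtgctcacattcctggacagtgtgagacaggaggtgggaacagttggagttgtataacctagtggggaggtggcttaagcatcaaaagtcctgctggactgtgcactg
Cyp2b13: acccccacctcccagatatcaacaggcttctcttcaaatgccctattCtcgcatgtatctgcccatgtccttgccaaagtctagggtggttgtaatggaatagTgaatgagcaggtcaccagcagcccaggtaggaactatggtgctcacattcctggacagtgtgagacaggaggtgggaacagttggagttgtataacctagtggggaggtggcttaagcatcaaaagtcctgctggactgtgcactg
Cyp2b10: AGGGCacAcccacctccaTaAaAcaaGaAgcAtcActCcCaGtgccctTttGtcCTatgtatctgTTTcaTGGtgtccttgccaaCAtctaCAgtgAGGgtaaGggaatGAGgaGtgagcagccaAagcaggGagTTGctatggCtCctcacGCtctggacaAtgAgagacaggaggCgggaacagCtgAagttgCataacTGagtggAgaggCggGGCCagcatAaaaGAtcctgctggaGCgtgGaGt

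The Cyp2b9 and Cyp2b13 windows were identical at 248 of 250 bases (99.2%). With positions counted from 1 at the 5′ end and the Cyp2b9 base given first, the differences are T48C and C104T, at 203 and 147 bases before the RefSeq start. Cyp2b10 was identical to Cyp2b9 at 182 of 260 aligned positions (70.0%). The coding sequences in GENCODE M21 were less alike for the first pair, at 92.7% identity between Cyp2b9 and Cyp2b13, against 86.2% between Cyp2b9 and Cyp2b10. The first pair of windows thus differed less than the coding sequences did. Across the 6 genes, the windows were searched on both strands for 6 motifs, which were chosen after the sequences had been seen. The nuclear receptor core AGGTCA began at position 113 in Cyp2b9 and in Cyp2b13, with no match in the other 4 windows, and 14% of all 32851 promoters in the table hold it. The CCAAT box matched in Nr1i2 (33.8% of all promoters). The direct repeat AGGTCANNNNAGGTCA, the STAT5 motif TTCNNNGAA, the HNF6 core ATTGAT and TATAAA had no match in any of the 6 windows. The phenobarbital-responsive enhancer known for Cyp2b10 lies further upstream, outside these windows.

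Because the transcripts are so alike, reads can be hard to assign. Of the 1802 positions at which a read of 75 bases can start in the Cyp2b9 transcript, 93 (5.2%) give a sequence also found in Cyp2b13. In the Cyp2b13 transcript, 295 of 1801 start positions (16.4%) give a sequence shared with another gene: 201 with the pseudogene Gm45225, 93 with Cyp2b9 and 37 with Cyp2b10. In Cyp2b10 it was 58 of 1748 (3.3%), and in Nr1i3, Nr1i2 and Por none. How such reads were counted is not given in the sources used here, so Cyp2b13 values are the least certain of the set.

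Depth was estimated by taking the most common low value above 0 of each library as a single read. It ran from 9.32 M to 18.7 M assigned reads. Whole reads were not recovered from the values, so this depth is approximate. Levels are given as normalized counts, obtained by inverting the deposited variance-stabilised log2 values, and differences as log2 on the deposited scale, which compresses the differences of weakly expressed genes. Each difference has its standard error (SE) from limma, with p-values adjusted over all 11568 genes, and calls were made below an adjusted p of 0.05. Groups without overlap are pointed out as a description only, and the share of all genes that separate in this way was not computed. The hepatocyte markers Alb, Apoa1, Apoc3, Ttr, Cps1 and Tat of the labelled tissue were above 0 in every library. No tested marker of 11 liver cell types was called in any of the 4 comparisons between groups. Of all genes, 0.0259% to 0.571% were called. Not every listed marker had enough signal to be tested: 2 of 6 did for cholangiocytes, 2 of 5 for lymphocytes, and 1 of 3 each for neutrophils and adipocytes. The first of the 2 RNA integrity numbers (RIN) in the labels averaged 9.00 ± 0.265 (SD, n = 3) in DEN/HFD MCOPPB, 8.85 ± 0.342 (n = 4) in DEN/HFD saline, 9.96 ± 0.0548 (n = 5) in chow MCOPPB and, with saline on chow, 9.23 ± 0.404 (n = 3).

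Cyp2b9 set the 4 groups apart without overlap. In DEN/HFD MCOPPB livers it stood at 1250, 1310 and 1011 normalized counts. In DEN/HFD saline livers it stood at 339, 447, 487 and 181. In chow MCOPPB livers it stood at 2847, 3010, 4167, 2115 and 4341. In chow saline livers it was close to the floor, at 30.4, 0 and 18.4 normalized counts. The order was therefore chow MCOPPB, DEN/HFD MCOPPB, DEN/HFD saline and chow saline, with every library of a group above every library of the next.

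Cyp2b13, the near neighbour of Cyp2b9, kept the same order at a lower level. It had 68.5, 84.9 and 66.9 normalized counts in DEN/HFD MCOPPB livers, against 15.9, 10.4, 25.9 and 13.7 in DEN/HFD saline livers. On chow it had 207, 140.5, 276, 177.5 and 446 in MCOPPB livers and was listed at 0 in all 3 saline livers. Its 4 groups did not overlap either. For each 100 normalized counts of Cyp2b9 there were 5.48 to 6.62 of Cyp2b13 in DEN/HFD MCOPPB libraries, 2.33 to 7.60 in DEN/HFD saline libraries and 4.67 to 10.3 in chow MCOPPB libraries. These ratios lie around the 5.2% of Cyp2b9 read positions that match Cyp2b13, and the part of shared reads in the Cyp2b13 values was not tested.

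Cyp2b10, the CAR target, was weakly expressed in all groups. It had 17.1, 15.2 and 51.2 normalized counts in DEN/HFD MCOPPB livers and 16.6, 16.3, 3.71 and 29.7 in DEN/HFD saline livers. It had 27.4, 34.2, 36.9, 5.30 and 64.4 in chow MCOPPB livers, against 0, 0 and 54.7 in chow saline livers. Each pair of groups overlapped. Of the summed counts of the 3 Cyp2b genes, Cyp2b9 made up 89.5% to 93.6% in DEN/HFD MCOPPB, 80.6% to 94.4% in DEN/HFD saline and 89.5% to 94.5% in chow MCOPPB libraries. The sum was 1129 to 1410 in DEN/HFD MCOPPB, 224 to 516 in DEN/HFD saline, 2297 to 4851 in chow MCOPPB and 0 to 73.2 in chow saline libraries. The other intact Cyp2b genes of the cluster, Cyp2b19 and Cyp2b23, were at the lowest value of the table in all 15 libraries.

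Nr1i3 (ENSMUSG00000005677.14, chromosome 1, 171213970 to 171220701, plus strand), which encodes CAR, varied widely within groups. It had 1303, 1144 and 788 normalized counts in DEN/HFD MCOPPB livers and 782, 1830, 965 and 1913 in DEN/HFD saline livers. It had 3039, 1461, 1632, 3801 and 3289 in chow MCOPPB livers and 1632, 2394 and 1306 in chow saline livers. The chow MCOPPB livers lay above the DEN/HFD MCOPPB livers without overlap, and the other 3 pairs compared overlapped. Nr1i3 overlaps Tomm40l, which is read from the opposite strand, and whether strand was used in counting is not given in the sources used here.

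Nr1i2 (ENSMUSG00000022809.4, chromosome 16, 38248323 to 38294824, minus strand), which encodes PXR, was the steadiest of the set. It had 405, 469 and 402 normalized counts in DEN/HFD MCOPPB livers and 415, 479, 344 and 432 in DEN/HFD saline livers. It had 599, 619, 534.5, 629 and 521 in chow MCOPPB livers and 528, 353 and 322 in chow saline livers. The chow MCOPPB livers again lay above the DEN/HFD MCOPPB livers, and chow saline 1 reached into the range of the chow MCOPPB livers.

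Por (ENSMUSG00000005514.14, chromosome 5, 135670033 to 135735326, plus strand), the reductase that serves all microsomal P450 enzymes, was highest in chow MCOPPB livers. It had 1241, 970 and 976 normalized counts in DEN/HFD MCOPPB livers and 1200, 2006, 1751 and 4042 in DEN/HFD saline livers. It had 4378, 5101, 3592, 3119 and 4291 in chow MCOPPB livers and 1775, 1525 and 1570 in chow saline livers. DEN/HFD saline 4 stood at the level of the chow MCOPPB livers for Por, while its Cyp2b9 was the lowest of its group. Por overlaps the minus-strand genes Gm16061 and Gm43091.

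**Figure D1:**
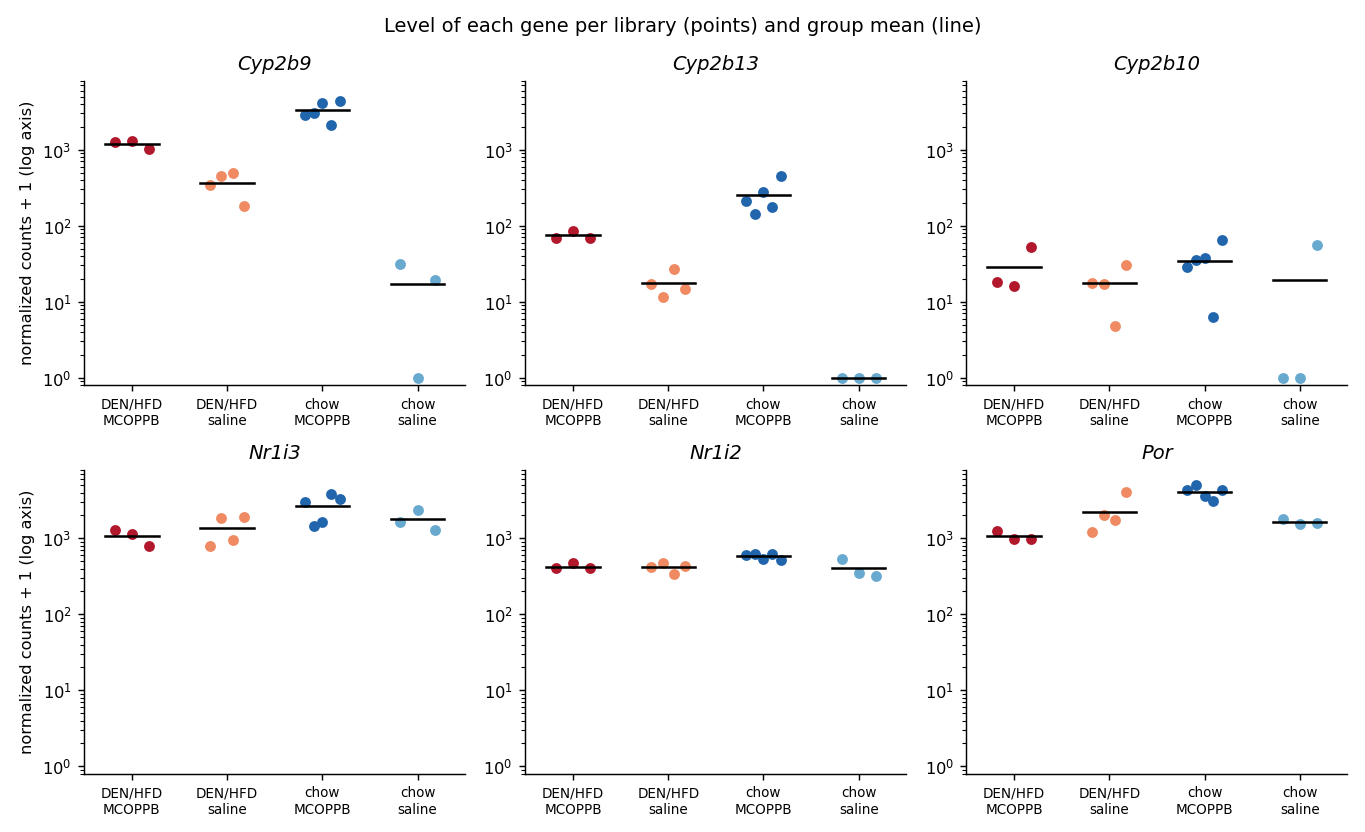
Normalized counts plus 1 of the 6 genes, on a log axis, for each library (points) with the group mean (line), in livers of the 4 groups, which hold 3 DEN/HFD MCOPPB, 4 DEN/HFD saline, 5 chow MCOPPB and 3 chow saline mice. Cyp2b9 and Cyp2b13 separate all 4 groups, and Cyp2b10 overlaps between groups.

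Levels of different genes were compared per kilobase of transcript. In chow MCOPPB livers Cyp2b9 averaged 1757 ± 501 normalized counts per kilobase (SD, n = 5). That was within the spread of Nr1i3 (1870 ± 736) and Por (1554 ± 290), and above Nr1i2 (227 ± 19.4), Cyp2b13 (133 ± 64.3) and Cyp2b10 (18.5 ± 11.6). In chow saline livers the order was Nr1i3 (1257 ± 395, n = 3), Por (616 ± 50.6), Nr1i2 (157 ± 43.5), and then Cyp2b10 (10.0 ± 17.4) and Cyp2b9 (8.67 ± 8.16), which did not differ beyond their spread. In both DEN/HFD groups Cyp2b9 lay between those extremes, at 634 ± 84.3 per kilobase with MCOPPB (n = 3) and 194 ± 73.0 with saline (n = 4). In DEN/HFD saline livers it was within the spread of Nr1i2 (164 ± 22.0). On this scale Cyp2b9 ranged over the groups from the level of Cyp2b10 to that of Nr1i3 and Por.

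On chow, MCOPPB livers carried far more Cyp2b9 and Cyp2b13 than saline livers. Cyp2b9 averaged 3296 ± 939 normalized counts (SD, n = 5) in MCOPPB livers and 16.3 ± 15.3 (n = 3) in saline livers, a log2 difference of 5.50 ± 0.29 (limma adjusted p = 6.97e-09). Cyp2b13 averaged 249 ± 120.5 in MCOPPB livers and was listed at 0 in saline livers, with a log2 difference of 2.82 ± 0.22 (limma adjusted p = 1.69e-06). These had the smallest and the second smallest p of all genes tested. Of the 6 genes, these 2 were called higher and none lower, where 0.32% of all genes tested were called in either direction.

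The other 4 genes had positive differences on chow that did not pass. Por averaged 4096 ± 764 normalized counts in MCOPPB livers and 1623 ± 133 in saline livers, a ratio of 2.52. Its log2 difference was 1.27 ± 0.28, with a limma adjusted p of 0.0601. All 5 MCOPPB livers lay above all 3 saline livers for Por, and how many of all genes separated in this way was not computed. Without DEN/HFD saline 4, the library with the highest Por of its group, the adjusted p was 0.00429. It was 0.0268 without DEN/HFD saline 1, 0.0229 when only the chow groups were fitted and 0.0496 with libraries centred on their median. In the other 23 alternative fits Por was not called, with adjusted p up to 0.301. Nr1i2 differed by 0.48 ± 0.16 (limma adjusted p = 0.345), Nr1i3 by 0.50 ± 0.34 (0.711) and Cyp2b10 by 0.64 ± 0.32 (0.597). Without chow saline 3, which alone of its group had any Cyp2b10, the Cyp2b10 difference was 1.14 (limma adjusted p = 0.144), and on log2 of normalized counts plus 1 it was 2.85 (0.462).

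The calls of Cyp2b9 and Cyp2b13 on chow held in all 12 other settings and in all 15 fits that left out 1 library, while the size depended on the scale. On log2 of normalized counts plus 1, the differences were 8.55 for Cyp2b9 and 7.85 for Cyp2b13. With the first RIN as a covariate, the log2 differences were 6.05 (limma adjusted p = 5.36e-07) and 3.05 (0.000270). The first RIN was at least 9.9 in chow MCOPPB and at most 9.7 in chow saline libraries. That fit therefore cannot tell RNA quality and group apart. The values of Kupffer cell markers were also higher in chow MCOPPB livers. Their summed level was 1478 to 2803 normalized counts in chow MCOPPB livers, against 707 to 1039 in chow saline livers. All 7 listed Kupffer markers had positive differences, where 50.1% of all genes tested did, and none was called. Their part in the Cyp2b difference was not tested. In other cell types with at least 6 tested markers, 4 of 6 hepatocyte, 6 of 8 pericentral and 5 of 6 periportal markers were positive. The count was 5 of 6 for sinusoidal endothelial cells and 1 of 6 for stellate cells.

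Under DEN/HFD, Cyp2b9 and Cyp2b13 had higher values with MCOPPB but did not pass the test. Cyp2b9 averaged 1190 ± 158 normalized counts (SD, n = 3) in MCOPPB livers and 363 ± 137 (n = 4) in saline livers, a ratio of 3.28. Its log2 difference was 1.57 ± 0.31 (limma adjusted p = 0.126). Cyp2b13 averaged 73.4 ± 9.98 in MCOPPB livers and 16.5 ± 6.67 in saline livers, a ratio of 4.45, with a log2 difference of 0.89 ± 0.23 (limma adjusted p = 0.428). In both genes every MCOPPB liver lay above every saline liver, and how many of all genes did so was not computed. Limma called none of the 6 genes, beside 0.0259% of all genes called, and 3 of the 6 had an unadjusted p under 0.05 (4.74% of all genes). Cyp2b9 was called in 2 alternative fits, with array weights (adjusted p = 0.0199) and without chow saline 2 (0.0496). In the other alternatives its adjusted p reached 0.965.

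Por ran the other way under DEN/HFD. It averaged 1062 ± 155 normalized counts in MCOPPB livers and 2250 ± 1242 in saline livers, a log2 difference of -0.90 ± 0.29 (limma adjusted p = 0.724). The groups overlapped, and without DEN/HFD saline 4 the difference was -0.58. Nr1i3 differed by -0.26 ± 0.36, Nr1i2 by 0.03 ± 0.17 and Cyp2b10 by 0.24 ± 0.34, none of them called. The 95% interval for Nr1i2 ran from -0.33 to 0.39, and that for Nr1i3 from -1.01 to 0.49.

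The difference between both MCOPPB effects was tested directly. For Cyp2b9 the effect under DEN/HFD minus the effect on chow was -3.93 ± 0.43 (limma adjusted p = 0.000460), the smallest p of all genes tested, and it was called in every alternative fit. For Cyp2b13 it was -1.93 ± 0.32 (limma adjusted p = 0.0394). With these, 2 of the 6 genes were called lower and none higher, beside 0.0692% of all genes called. Because Cyp2b13 was listed at 0 in chow saline, its differences depend on the scale of the values, which sets how far a 0 lies below a low count. For Por the difference was -2.17 ± 0.40 (limma adjusted p = 0.0531), and for Nr1i3 (-0.76 ± 0.49), Nr1i2 (-0.45 ± 0.24) and Cyp2b10 (-0.40 ± 0.47) it was not called.

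The call for Cyp2b13 was lost in 11 of 15 fits that left out 1 library, where the difference was -1.86 to -1.99 and the adjusted p 0.0565 to 0.156. These were the fits without chow MCOPPB 3, any chow saline library, any DEN/HFD MCOPPB library or any DEN/HFD saline library. The Cyp2b13 call was also lost in 4 of 11 other settings, with differences of -1.80 to -2.12 and adjusted p from 0.0765 to 0.0833. Por was instead called without chow MCOPPB 4 (adjusted p = 0.0485), DEN/HFD saline 1 (0.0172) or DEN/HFD saline 4 (0.0333), and in 4 other settings (0.0298 to 0.0481).

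**Figure D2:**
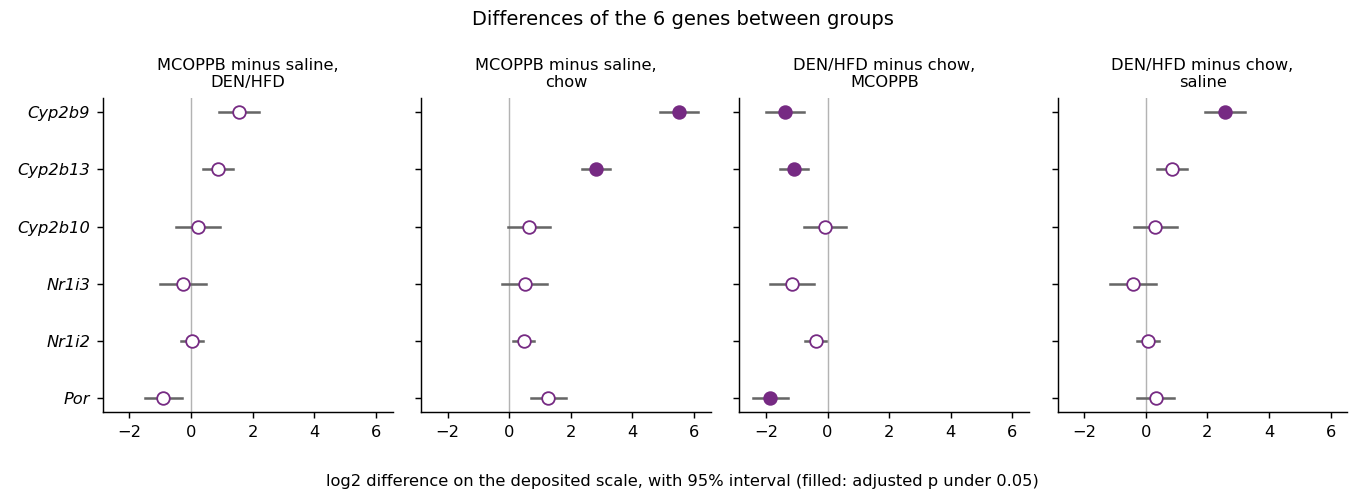
Log2 differences of the 6 genes on the deposited scale with 95% intervals, for MCOPPB minus saline under DEN/HFD and on chow, and for DEN/HFD minus chow in MCOPPB and in saline mice. Filled points passed an adjusted p of 0.05. The largest is Cyp2b9 for MCOPPB on chow (5.50), and in DEN/HFD against chow Cyp2b9 lies below 0 with MCOPPB (-1.37) and above 0 with saline (2.57).

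In saline mice, DEN/HFD livers held more Cyp2b9 than chow livers. Cyp2b9 averaged 363 ± 137 normalized counts (SD, n = 4) in DEN/HFD livers and 16.3 ± 15.3 (n = 3) in chow livers, a log2 difference of 2.57 ± 0.31 (limma adjusted p = 0.00198). This was the smallest p of all genes tested, and the call held in all 27 alternative fits. It was the 1 gene of the 6 called higher, with none called lower, beside 0.0519% of all genes called. Cyp2b13 averaged 16.5 ± 6.67 in DEN/HFD livers and was listed at 0 in chow livers. Its log2 difference was 0.85 ± 0.23 (limma adjusted p = 0.192), and on a scale of log2 of normalized counts plus 1 it was 4.06 and called (0.000725).

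The receptors and the reductase were not called in this comparison. Nr1i3 differed by -0.41 ± 0.36 (limma adjusted p = 0.734), Nr1i2 by 0.07 ± 0.17 (0.925), Por by 0.32 ± 0.29 (0.749) and Cyp2b10 by 0.31 ± 0.34 (0.792). The Por difference rested on 1 library: without DEN/HFD saline 4 it was -0.002.

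In MCOPPB mice the direction was the opposite, and DEN/HFD livers held less of Cyp2b9, Cyp2b13 and Por than chow livers. Por averaged 1062 ± 155 normalized counts (SD, n = 3) in DEN/HFD livers and 4096 ± 764 (n = 5) in chow livers, a ratio of 0.259 and a log2 difference of -1.85 ± 0.28 (limma adjusted p = 0.00280). Cyp2b9 averaged 1190 ± 158 in DEN/HFD livers and 3296 ± 939 in chow livers, a ratio of 0.361 and a log2 difference of -1.37 ± 0.29 (limma adjusted p = 0.0411). Cyp2b13 averaged 73.4 ± 9.98 in DEN/HFD livers and 249 ± 120.5 in chow livers, a ratio of 0.294 and a log2 difference of -1.08 ± 0.22 (limma adjusted p = 0.0289). These 3 of the 6 genes were called lower and none higher, beside 0.571% of all genes called. Nr1i3 (-1.16 ± 0.34, limma adjusted p = 0.146), Nr1i2 (-0.39 ± 0.16, 0.331) and Cyp2b10 (-0.08 ± 0.32) were not called. Nr1i3 and Nr1i2 separated the groups without overlap, and how many of all genes did so was not computed.

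The call for Por held in all 15 fits without 1 library and in 10 of 12 other settings. With the first RIN as a covariate, which differed between these groups as given above, the log2 difference of Por was -1.98 and its adjusted p 0.274. The cause of that lost call was not tested. The first RIN was at least 9.9 in chow MCOPPB and at most 9.2 in DEN/HFD MCOPPB livers. RNA quality and group therefore cannot be told apart in this comparison. The Cyp2b9 call was lost in 7 of 12 other settings (log2 differences of -1.31 to -2.10, adjusted p up to 0.453) and in 10 of the 15 fits, with log2 differences of -1.26 to -1.43 and adjusted p from 0.0520 to 0.232. These were the fits without chow MCOPPB 1, 2, 3 or 5, chow saline 3, any DEN/HFD MCOPPB library, or DEN/HFD saline 1 or 2. The Cyp2b13 call was lost in 6 of 12 other settings (log2 differences of -0.92 to -1.64, adjusted p up to 0.280) and in 5 of the 15 fits, without chow MCOPPB 1 or 3 or any DEN/HFD MCOPPB library, with log2 differences of -1.04 to -1.14 and adjusted p from 0.0554 to 0.181. Each of these comparisons shares its libraries with others above, so they are not independent of each other.

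The ratio of Por to Cyp2b9 was lower in both MCOPPB groups than in both saline groups. Per library, the ratio of Por to Cyp2b9 normalized counts was 0.740 to 0.993 in DEN/HFD MCOPPB and 0.862 to 1.69 in chow MCOPPB libraries. It was 3.54 to 22.4 in DEN/HFD saline libraries, and 58.4 and 85.2 in the 2 chow saline libraries with any Cyp2b9. DEN/HFD MCOPPB livers thus had higher Cyp2b9 values than either saline group and the lowest Por mean of the 4 groups.

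**Figure D3:**
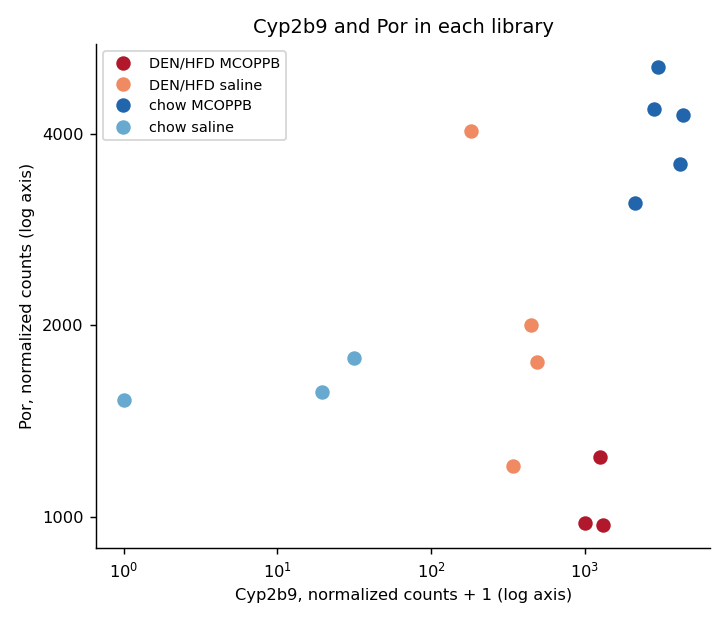
Por normalized counts (log axis) against Cyp2b9 normalized counts plus 1 (log axis), with 1 point per library coloured by group. The 5 chow MCOPPB libraries lie at the upper right, and the 3 DEN/HFD MCOPPB libraries lie at 970 to 1241 for Por and 1011 to 1310 for Cyp2b9. DEN/HFD saline 4 has the highest Por of its group, at 4042.

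Around the Cyp2b genes, 45 genes are annotated in the cluster from Cyp2s1 to Cyp2t4, and 10 had enough signal to be tested. Genes that passed the test stood between and beside others that did not. In chromosome order, the MCOPPB differences on chow were 0.64 for Cyp2b10, 2.82 for Cyp2b13, 5.50 for Cyp2b9, 3.74 for Cyp2a4, 0.82 for Cyp2g1, 1.11 for Cyp2a5, 2.71 for Cyp2a22, 0.48 for Cyp2a12 and 0.10 for Cyp2f2. Cyp2b9, Cyp2b13, Cyp2a4 (a steroid hydroxylase gene of the female liver, limma adjusted p = 0.0204) and Cyp2a22 (0.000433) were called. Of all genes tested, 0.32% were called.

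The values of the called neighbours show their spread. Cyp2a4 averaged 1190 ± 1096 normalized counts in chow MCOPPB livers and 11.5 ± 9.99 in chow saline livers, and its sequence is known to be nearly identical to that of Cyp2a5, so reads of these genes can be confused. Cyp2a22 averaged 719 ± 171 in chow MCOPPB livers and 48.9 ± 14.2 in chow saline livers. Under DEN/HFD none of the 10 was called for MCOPPB, beside 0.0259% of all genes called. Beyond the 3 Cyp2b genes, 2 of 6 tested genes on the cluster list had an unadjusted p under 0.05 (4.74% of all genes). Cyp2a22 had the smallest p of that list (1.30 ± 0.36, limma adjusted p = 0.512). In MCOPPB mice 1 of the 6 listed genes, Cyp2g1, was called lower in DEN/HFD livers, beside 0.571% of all genes called. Cyp2g1 averaged 4.31 ± 4.95 normalized counts in DEN/HFD livers, against 56.6 ± 16.3 in chow livers. Of the same 6 genes, Cyp2a4 had the smallest p for DEN/HFD in saline mice (1.62 ± 0.73, limma adjusted p = 0.419).

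**Figure D4:**
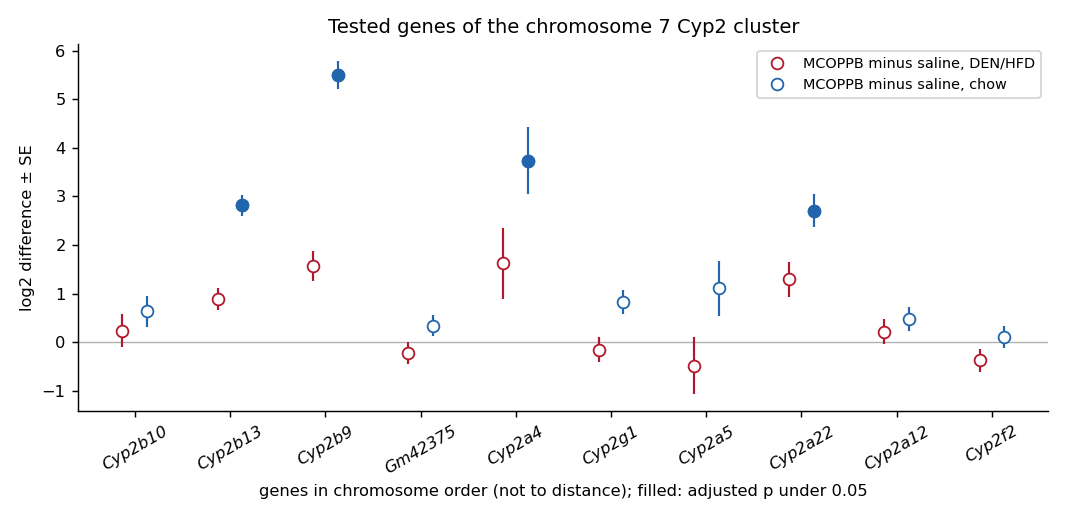
Log2 differences with standard errors for MCOPPB minus saline, under DEN/HFD and on chow, of the 10 tested genes of the Cyp2 cluster in chromosome order (Gm42375 is an antisense gene). On chow, the filled points Cyp2b13, Cyp2b9, Cyp2a4 and Cyp2a22 passed an adjusted p of 0.05 and lie among genes that did not.

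Most of the other listed CAR and PXR targets had positive MCOPPB differences on chow. The gene lists share some members, so their counts are not independent. Of these targets, Cyp2c39, Cyp3a41a and Cyp3a44 are also on the female-biased list below, Cyp2a5 on the cluster list and Alas1 on the heme list. The female-biased list also shares Cyp2a4 with the cluster list and Cux2 with the growth hormone list. Of 48 listed targets 42 were tested, and on chow 35 had positive and 7 negative MCOPPB differences, with a median of 0.35 beside 0.001 for all genes. Limma called 3 of them higher and none lower, beside 0.32% of all genes called. Slco1a4, a sinusoidal uptake transporter, averaged 858 ± 175 normalized counts in chow MCOPPB livers and 242 ± 57.6 in chow saline livers (log2 difference 1.53 ± 0.20, limma adjusted p = 0.000433). Abcb1a, a drug efflux pump, averaged 88.4 ± 8.67 in chow MCOPPB livers and 11.6 ± 11.6 in chow saline livers (1.30 ± 0.22, 0.00943). Papss2, which makes the sulfate donor for sulfotransferases, averaged 3060 ± 223 in chow MCOPPB livers and 1214 ± 175 in chow saline livers (1.28 ± 0.24, 0.0191).

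The same list was evenly split under DEN/HFD. Of the 42 tested targets 21 had positive and 21 negative MCOPPB differences, with a median of -0.004, the same as for all genes. Limma called none, and 7 had an unadjusted p under 0.05 (4.74% of all genes). Cyp2c54, a Cyp2c enzyme gene, had the smallest p (-1.54 ± 0.52, limma adjusted p = 0.761). For DEN/HFD in saline mice 28 were positive and 14 negative, none was called, 7 had an unadjusted p under 0.05 (11% of all genes), and Abcb1a had the smallest p (0.89 ± 0.23, limma adjusted p = 0.185).

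In MCOPPB mice 16 of the 42 targets were positive and 26 negative for DEN/HFD, and 4 were called lower, beside 0.571% of all genes called. Slco1a4 averaged 277 ± 84.9 normalized counts in DEN/HFD MCOPPB livers and 858 ± 175 in chow MCOPPB livers. Papss2 averaged 1341 ± 267 in DEN/HFD MCOPPB livers and 3060 ± 223 in chow MCOPPB livers. Cyp2c54 and Alas1, the rate-limiting enzyme gene of heme synthesis, were the others (-2.82 ± 0.50 and -2.03 ± 0.41). In this comparison the median of the list was -0.20, beside -0.005 for all genes.

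**Figure D5:**
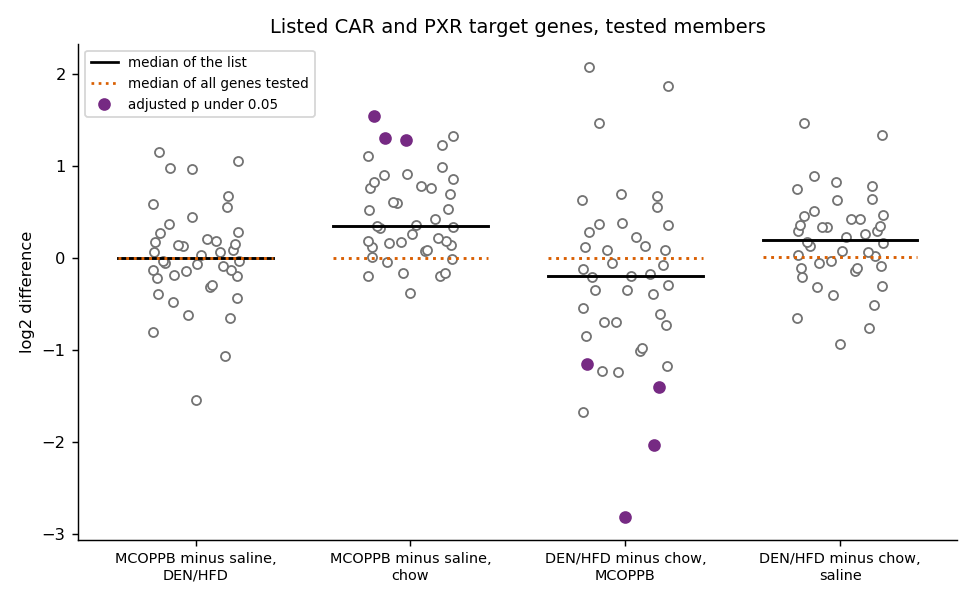
Log2 differences of the 42 tested CAR and PXR targets for MCOPPB minus saline, under DEN/HFD and on chow, and for DEN/HFD minus chow, in MCOPPB and in saline mice. Solid lines are list medians, dotted lines the medians of all genes tested, and filled points passed an adjusted p of 0.05. The list median lies above 0 for MCOPPB on chow (0.35) and at -0.004 under DEN/HFD.

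Partners and regulators of CAR and PXR, among them RXR, coactivators, corepressors and the chaperones that hold CAR in the cytoplasm, were not called. Of 25 tested genes 16 had positive MCOPPB differences on chow, with a median of 0.12, and 4 had an unadjusted p under 0.05 (9.06% of all genes). Under DEN/HFD 10 were positive and 1 had an unadjusted p under 0.05 (4.74% of all genes). In saline mice 15 were positive for DEN/HFD and 1 had an unadjusted p under 0.05 (11% of all genes). Egfr, the growth factor receptor whose signalling is known to keep CAR inactive, had the smallest p of the list in all 3 comparisons. It averaged 551 ± 300.5 normalized counts in DEN/HFD MCOPPB livers, 1371 ± 992 in DEN/HFD saline livers, 1012 ± 349 in chow MCOPPB livers and 2783 ± 1036 in chow saline livers. Its MCOPPB difference was -1.09 ± 0.42 under DEN/HFD (limma adjusted p = 0.923) and -1.37 ± 0.40 on chow (0.241), and its DEN/HFD difference in saline mice was -1.11 ± 0.42 (0.323).

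Other genes of microsomal electron transfer and heme metabolism were mostly not called. Of 19 tested genes, among them those of cytochrome b5 and its reductase, 10 had positive MCOPPB differences on chow, with a median of 0.01. Limma called none on chow, under DEN/HFD or for DEN/HFD in saline mice, and each time 1 gene had an unadjusted p under 0.05. Of all genes, 9.06%, 4.74% and 11% had one in these 3 comparisons. Hmox1, which breaks heme down, had the smallest p on chow (0.63 ± 0.29, limma adjusted p = 0.545) and for DEN/HFD in saline mice (1.17 ± 0.30, 0.181). Under DEN/HFD, the smallest p for MCOPPB was that of Alas1 (-1.07 ± 0.43, limma adjusted p = 0.923). Alas1 was called lower in DEN/HFD MCOPPB livers, at 937 ± 424 normalized counts, against 3977 ± 904 in chow MCOPPB livers.

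Cyp2b9 and Cyp2b13 belong to the genes of female liver, so other sex-biased genes were set beside them. On chow, where 50.1% of all genes tested were positive and 0.32% called, 16 of 17 tested female-biased genes had positive MCOPPB differences (median 1.18). Of these, 6 were called higher, among them the P450 genes Cyp2c40 (2.81 ± 0.32) and Cyp2c69 (2.88 ± 0.35) and the transporter gene Slc22a26 (2.69 ± 0.34). Of 14 tested male-biased genes 13 were negative (median -2.28) and 8 called lower, among them the fatty acid elongase gene Elovl3 (-2.78 ± 0.26), the urinary pheromone gene Mup20 (-4.31 ± 0.42) and the fatty acid hydroxylase gene Cyp4a12b (-2.96 ± 0.35). Under DEN/HFD all 17 female-biased genes were positive (median 0.44), and the steroid enzyme gene Cyp17a1 was called higher (1.64 ± 0.26, limma adjusted p = 0.0312). Under DEN/HFD 13 of the 14 male-biased genes were negative (median -1.10), none was called, and 10 had an unadjusted p under 0.05 (4.74% of all genes). Cyp4a12b had the smallest p there (-1.84 ± 0.36, limma adjusted p = 0.126).

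In saline mice, where Cyp2b9 was called higher in DEN/HFD livers, 12 of 17 other female-biased genes were positive with a median of 0.11, and none was called. Of these 17, 3 had an unadjusted p under 0.05 (11% of all genes), and the smallest p was that of Fmo2 (-0.69 ± 0.27, limma adjusted p = 0.345). Of the 14 male-biased genes 13 were negative (median -0.50), 6 had an unadjusted p under 0.05, and Cyp4a12b was called lower (-2.18 ± 0.36, limma adjusted p = 0.0303), beside 0.0519% of all genes called. In MCOPPB mice 12 of the 17 female-biased genes were negative for DEN/HFD, with a median of -0.61. Limma called 6 of them lower, beside 0.571% of all genes called. Of the 14 male-biased genes 8 were negative (median -0.17), and Elovl3 (2.18 ± 0.26) and Mup20 (3.47 ± 0.42) were called higher. Cyp2c40 and Cyp2c69, called on chow as Cyp2b9 was, had low values in DEN/HFD MCOPPB livers. Cyp2c40 averaged 31.2 ± 8.63 normalized counts in DEN/HFD MCOPPB livers and 30.4 ± 22.4 in DEN/HFD saline livers. Cyp2c69 averaged 11.4 ± 7.13 in DEN/HFD MCOPPB livers and 1.81 ± 1.58 in DEN/HFD saline livers. For the difference between MCOPPB effects, where 49.4% of all genes tested were positive, 14 of the 17 female-biased genes were negative. Of these Cyp2c40 was called, as Cyp2b9 was (-2.74 ± 0.46, limma adjusted p = 0.0394), beside 0.0692% of all genes called. Among the 14 male-biased genes, 12 were positive (median 0.75), and Elovl3 was called higher (3.24 ± 0.37, limma adjusted p = 0.000535). Whether the genes of either list differ from Cyp2b9 in their response was not tested.

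Of 19 regulators that carry the growth hormone pattern to liver genes, 9 had positive MCOPPB differences on chow (median -0.005). An unadjusted p under 0.05 was seen for 3 of them (9.06% of all genes), and 1 was called, beside 0.32% of all genes called. This was Esr1, the oestrogen receptor gene, called higher (1.00 ± 0.20, limma adjusted p = 0.0391). Esr1 averaged 184 ± 36.5 normalized counts in chow MCOPPB livers and 62.5 ± 36.2 in chow saline livers. None was called under DEN/HFD for MCOPPB, with 0 at an unadjusted p under 0.05 (4.74% of all genes). The smallest p there was that of Onecut1, which encodes HNF6 (-0.50 ± 0.29). None was called for DEN/HFD in saline mice either, with 1 at an unadjusted p under 0.05 (11% of all genes), again Onecut1 (-0.80 ± 0.29, limma adjusted p = 0.300).

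Likeness of pattern was measured by Pearson correlation of the log2 values over the 15 libraries, which share the 4 groups, and is given as a description. Cyp2b9 and Cyp2b13 had r = 0.955. Outside the 6 genes, those most like Cyp2b9 were the carrier gene Slc16a5 (0.915), the P450 gene Cyp2a22 (0.898), the monoamine oxidase gene Maob (0.875) and the annexin gene Anxa6 (0.873). Those most like Cyp2b13 were Slc22a26 (0.925), Cyp2a22 (0.905), A1bg (0.872) and Slc16a5 (0.862). Por was most like Papss2 (0.935), the ethanolamine kinase gene Etnk2 (0.913), the peroxiredoxin gene Prdx6 (0.909) and the phospholipase gene Gpld1 (0.894).

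The receptors and Cyp2b10 had weaker likeness to the other Cyp2b genes. Nr1i3 had r = 0.20 with Cyp2b9 and 0.67 with Por. Nr1i2 had r = 0.66 with Cyp2b9, and Cyp2b10 had r = 0.51 with Cyp2b9. Nr1i3 was most like Gm49410 (0.888), Tgm1 (0.878), Gm43314 (0.874) and Gm45909 (0.869). Cyp2b10 was most like Umps (0.802), Vasp (0.780), Rab20 (0.774) and Fam136a (0.758). The gene most like Nr1i2 was Txndc15 (0.858), followed by 2810001G20Rik (0.845), and Prlr, the prolactin receptor gene, had r = 0.817.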

How the data were processed

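The authors deposited variance-stabilised log2 values of 54281 Ensembl genes in 15 libraries. Per the labels' protocols, libraries were directional and read as single reads of 75 bases. The submitters' processing notes name GRCm38 (mm10), STAR 2.7.0e, Trimmomatic, HTSeq and DESeq2, with roles and settings not given. The lowest value (5.49) stands for 0 reads. Inverting the transformation gave normalized counts. Whole numbers of reads (within 0.01) made up 15.25% to 45.25% of the values below 20 reads, so reads were not recovered and no counting interval is given.

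The filter kept 11568 genes that reached 22.5 normalized counts (1 on the log2 scale over the lowest value) in 3 or more libraries. Limma 3.58.1 (R 4.3.3) fitted 4 group means over 15 libraries with eBayes and a mean-variance trend (11 residual degrees of freedom). P-values were two-sided and adjusted by Benjamini-Hochberg. The labels give 1 mouse per library. Replicate numbers were not treated as pairs in the main fit, and 5 of 19 same-numbered pairs had residuals correlated above 0.1. With groups of 3 to 5 mice, this count cannot show whether same-numbered libraries shared a batch. Names, positions and transcripts came from GENCODE M21. In each list and comparison, up to 3 called genes with the smallest p were named, or the gene with the smallest p where none was called, and for each of the 6 genes those most like it, of which 1 for Nr1i2 is not reported here. For DEN/HFD in MCOPPB mice, genes were named after their values were seen. The genes and lists were chosen with earlier results of these data known. Alternatives were other filters, scalings, covariates and weights, and leaving out each library.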

Additional observations from a re-analysis of the deposited data

Results flagged for a closer look

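The MCOPPB effect differed between DEN/HFD and chow mice for Cyp2b9 and Cyp2b13, each by a test of the difference itself. For Cyp2b9, the effect under DEN/HFD minus the effect on chow was -3.93 (log2; limma adjusted p = 0.000460). For Cyp2b13 it was -1.93 (limma adjusted p = 0.0394), and this call was lost in 11 of 15 fits that left out 1 library, in which the difference was -1.86 to -1.99. The Cyp2b13 call was also lost in 4 of 11 other settings. Because Cyp2b13 was listed at 0 in chow saline, its difference depends on the scale of the values. In both genes DEN/HFD MCOPPB livers lay below chow MCOPPB livers, while DEN/HFD saline livers lay above chow saline livers. Dixon's test on the log2 values passed its critical value for no library in 12 tests, for 6 genes in the groups of 4 and 5. This includes DEN/HFD saline 4, whose Por was the highest of its group (4042 normalized counts, against 1200, 2006 and 1751).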

How the results depend on the processing

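Each of the 5 comparisons was recomputed under 12 other settings where they could be run and with each of 15 libraries left out, with the filter applied anew. Of the differences of the 6 genes, 731 kept their direction and side of the threshold, 45 lost a call, 14 gained one and 9 changed sign. The calls of Cyp2b9 on chow, in DEN/HFD saline mice and for the difference between MCOPPB effects, and of Cyp2b13 on chow, held in all of them. Each sign change concerned a value that was not called. Cyp2b10 for DEN/HFD in MCOPPB mice was 0.039 without chow MCOPPB 5, 0.008 without DEN/HFD MCOPPB 1, 0.031 without DEN/HFD MCOPPB 2 and 0.005 with the replicate block, and it ranged from -0.292 to 0.039 with 1 library left out. Nr1i2 for MCOPPB under DEN/HFD was -0.034 without DEN/HFD MCOPPB 2 and -0.048 without DEN/HFD saline 3 (range -0.048 to 0.085). For DEN/HFD in saline mice Nr1i2 was -0.052 without chow saline 3 (range -0.052 to 0.245). Por for DEN/HFD in saline mice was -0.002 without DEN/HFD saline 4 (range -0.002 to 0.558), and Nr1i3 for MCOPPB under DEN/HFD was 0.354 with the second RIN. The cause was not tested.

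Counts of called genes out of the 6 moved as follows. For DEN/HFD in MCOPPB mice the 3 called genes became 1 with no filter, on log2 of normalized counts plus 1 or with the second RIN, and 0 with the first RIN. For DEN/HFD in saline mice 1 became 2 on log2 of normalized counts plus 1. For the difference between MCOPPB effects 2 became 1 with no filter or with either RIN, and 3, with Por, when libraries were centred on their median, on log2 of normalized counts plus 16, with array weights or with no mean-variance trend. For MCOPPB on chow 2 became 3, with Por, when libraries were centred or only the groups compared were fitted. For MCOPPB under DEN/HFD 0 became 1 with array weights. With 1 library left out, the counts were 1 to 3 for DEN/HFD in MCOPPB mice, 1 to 3 for the difference, 2 to 3 for MCOPPB on chow, 0 to 1 for MCOPPB under DEN/HFD and 1 in each fit for DEN/HFD in saline mice.

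Over all genes, the 37 called for MCOPPB on chow became 15 with the first RIN, and 16 to 51 with 1 library left out. The 3 under DEN/HFD became 6 with no filter, 0 with quantile normalization, 8 with only the groups compared, 8 with array weights and 0 with the second RIN, and 0 to 6 with 1 library left out. The 6 for DEN/HFD in saline mice became 3 with array weights and 1 with the first RIN, and 1 to 52 with 1 library left out. The 66 for DEN/HFD in MCOPPB mice became 135 with only the groups compared, 285 with array weights, 0 with the first RIN and 34 with the second RIN, and 18 to 157 with 1 library left out. The 8 for the difference became 2 with no filter, 4 on log2 of normalized counts plus 1, 3 with the first RIN and 2 with the second RIN, and 2 to 12 with 1 library left out.

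Replicate numbers are shared between groups and were not treated as pairs in the main fit. The mean residual correlation was -0.0273 over 19 same-numbered pairs and 0.00838 over 64 others. In groups this small, these values cannot show whether same-numbered libraries shared a batch. With the replicate block, the counts of called genes were 23 for MCOPPB on chow, 0 for MCOPPB under DEN/HFD, 16 for DEN/HFD in MCOPPB mice and 2 for the difference. Of the 6 genes, 0 were called with the block for DEN/HFD in MCOPPB mice (Por at -1.73, limma adjusted p = 0.0685) and 1 for the difference, and no other count of them changed. Groups of 3 to 5 mice and low counts of Cyp2b10 and Cyp2b13 limit what could be detected.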
